A study of Mus musculus with 56 samples.

Results

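The cytosolic ribosomal protein genes are the protein-coding genes whose symbols are Rpl or Rps followed by a digit, together with Rpsa, Rplp0, Rplp1 and Rplp2, with the Rps6k kinases and all entries named as pseudogenes left out. By this rule 90 of 52230 genes with a transcript in the tables were members. By symbol, 51 were counted with the large (60S) subunit, 35 with the small (40S) subunit and 3 with the stalk of the large subunit. Rps19bp1 is named for binding Rps19 and is not a subunit. The count of 60S and 40S genes includes 12 paralogues or retrocopies of another member, such as Rpl7l1, Rpl36al, Rps27l, Rps4l and Rps23rg1. Whether each of these 12 encodes a protein of the ribosome was not tested. At least 1 read was assigned to 88 members, and 85 members passed the filter on low counts over all groups.

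Liver RNA came from 56 male mice of the knock-in line GCKR-P446L-EMI-B6N, which carries proline (P) or leucine (L) at position 446 of GKRP, the regulatory protein of glucokinase (gene Gckr). GKRP binds glucokinase and holds it in the nucleus of hepatocytes. Every mouse, controls included, was fed the high-fat, high-sugar diet (HFHSD, 45% of energy as fat, with 10% glucose and 5% fructose in the water) for 20 weeks, and some mice of each genotype were given the glucokinase activator GKA at 3 mg/kg. On the HFHSD alone there were 9 PP, 8 PL and 10 LL livers, and on the HFHSD with GKA there were 10 PP, 8 PL and 10 LL livers. A further liver, PP mouse 7, was left out of the comparisons and kept in an alternative fit. The study had removed this mouse because its expression stood apart from the rest on a heatmap. PP, PL and LL mice on this diet were 28 weeks old when livers were taken. The age of the mice given GKA and the batch, litter or date of each liver are not given in the sources used here. The knock-in changes a codon in every tissue, and Gckr itself was at 117 to 232 CPM (counts per mega reads, TMM-scaled, with a median of 164) in these livers, a gene-level count that does not tell the alleles apart. Defining hepatocyte genes summed to between 73543 CPM and 126570 CPM in every liver, while Ckm (muscle), Prss2, Cpa1 and Ctrb1 (pancreas) and Adipoq (adipose tissue) had no read. On the same lists Cela1 (pancreas, median 23.2 CPM) and Fabp4 (adipose tissue, median 5.04 CPM) had reads in all 55 livers.

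A ribosome joins a small subunit, which reads the messenger RNA, to a large subunit, which links the amino acids. Most ribosomal proteins are needed in equal numbers. Messages of ribosomal proteins share a run of pyrimidines at the 5′ end (the 5′ TOP). Through it mTORC1, a kinase that responds to nutrients and insulin, sets how strongly they are translated. In liver, which makes most of the plasma proteins, ribosome content is known to follow feeding and fasting. The mammalian genome also holds a large number of processed pseudogenes of these genes, copies of the messenger RNA that were written back into the genome without introns.

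The copies matter for the values below, since a read from a stretch that a gene and its copy share does not tell which of them it came from. The following 90-base stretches of coding sequence (GENCODE, GRCm39) are shown because the gene and its most-read pseudogene are identical over them, or, for Rpl35, the gene and its retrocopy Rpl35rt.
Rpl27 and Gm11518: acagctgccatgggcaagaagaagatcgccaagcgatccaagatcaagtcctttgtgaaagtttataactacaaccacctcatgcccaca
Rpl10 and Rpl10-ps3: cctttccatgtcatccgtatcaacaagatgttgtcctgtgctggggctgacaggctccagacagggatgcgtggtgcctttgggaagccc
Rps28 and Gm10443: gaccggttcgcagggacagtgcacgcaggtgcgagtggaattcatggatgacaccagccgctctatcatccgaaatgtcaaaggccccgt
Rpl12 and Gm10275: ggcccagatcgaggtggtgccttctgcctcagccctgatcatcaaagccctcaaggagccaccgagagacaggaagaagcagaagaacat
Rpl35 and Rpl35rt: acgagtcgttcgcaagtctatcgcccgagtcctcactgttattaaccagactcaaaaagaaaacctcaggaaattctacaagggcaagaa
Rpl27 lies on chromosome 11 from 101333074 to 101336422 on the plus strand, and its copy Gm11518 lies on the same chromosome from 93928044 to 93928454 on the minus strand. Rpl10 lies on chromosome X from 73314418 to 73316741, and Rpl10-ps3 lies on chromosome 9 from 50255501 to 50256268. Rps28 lies on chromosome 17 from 34034199 to 34043536, and Gm10443 lies on chromosome 6 from 86311013 to 86311222. The whole of Gm11518 (411 bases), of Gm10443 (210 bases) and of Gm10275 (495 bases) matched a transcript of its parent gene at 100% identity, and Rpl10-ps3 matched Rpl10 at 100% over 96.4% of its length. Rpl35 lies on chromosome 2 from 38891591 to 38895637, and its retrocopy Rpl35rt, a member with a coding annotation of its own on chromosome 1 from 156193610 to 156194054, was 99.6% identical to it over 445 bases.

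Rps27 and its paralogue Rps27l are shown for contrast, with the 20 bases that differ between them in capitals.
Rps27: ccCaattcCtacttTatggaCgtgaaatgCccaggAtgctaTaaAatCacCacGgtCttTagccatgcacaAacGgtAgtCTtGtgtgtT
Rps27l: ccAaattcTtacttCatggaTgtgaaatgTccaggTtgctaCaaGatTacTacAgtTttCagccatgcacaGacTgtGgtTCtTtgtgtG
Rps27 lies on chromosome 3 from 90119819 to 90120977 on the minus strand, and Rps27l lies on chromosome 9 from 66853340 to 66856808 on the plus strand. Over the 254 bases that aligned the genes were 76.4% identical, so reads of this pair can be told apart.

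Salmon, the program used by the authors to count reads per transcript, divides a read that fits several transcripts among them by its own estimate. In the 55 livers, 87.9% of the reads of the members together with 821 pseudogenes that matched them (at least 90% identity over at least 50% of the pseudogene) were assigned to the members themselves, with a range of 82.8% to 91.6% by liver. The split depended on the gene. Of the members with at least 10 reads per liver, 22 had a pseudogene that was 100% identical over at least 95% of its length, and these members held a median of 60.05% of the reads of their family (range 34.0% to 99.9%). The 62 members without such a pseudogene held a median of 99.8% (range 64.3% to 100%). The term family is used below for a gene with all its matching pseudogenes.

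The split of a family also differed from liver to liver. Rpl27, a protein of the 60S subunit, held between 6.73% and 100% of its family's reads (median 17.3%), and more than 90% in 10 livers. Rpl10, the 60S protein that is added last and lies near the peptidyl transferase centre, held between 2.41% and 100% (median 67.6%), with under 10% in 4 livers and over 90% in 12. These ranges were found within families whose sums were steady. Over the 28 members that held less than 90% of their family, the SD of log2 CPM between livers of a group had a median of 0.64 for the gene alone and 0.26 for the family. Among them only Rpl12 and Rpl5 had a family SD above 0.4. For the 56 other members with at least 10 reads per liver the medians were 0.28 and 0.26. For the split members named below, the fold change of the family sum is therefore given in the text beside that of the gene.

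**Figure D1:**
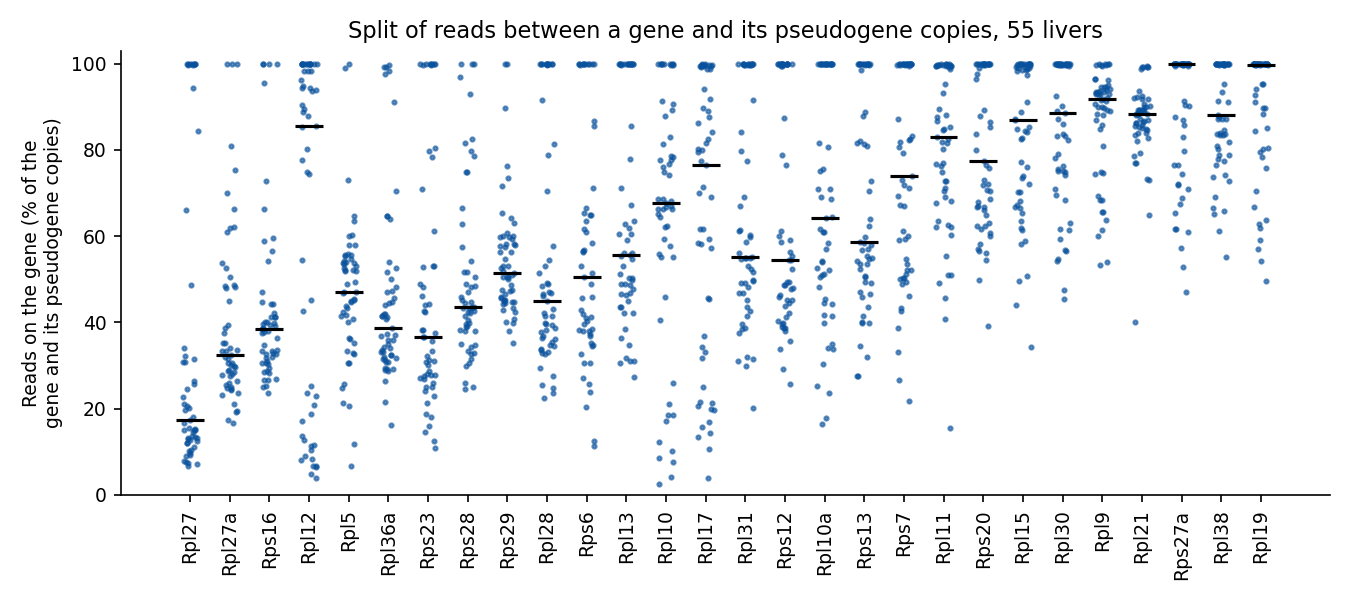
Share of the reads of a family (a gene with its matching pseudogenes, %) that was assigned to the gene, for the 28 members below 90%. Each point is 1 of 55 livers and each bar is the median. Rpl27 runs from 6.73% to 100% and Rpl10 from 2.41% to 100%, so that a single liver can have almost all or almost none of a family's reads on the gene.

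The ends at which transcription starts are shown for a few members named below, since the 5′ TOP is the feature for which these messages are known. RefSeq (GRCm38.p6) start sites were found for 67 of the 90 members. Each window runs from 10 bases before to 20 bases after the annotated start, on the transcribed strand, and capitals mark any of the pyrimidine strings CTTCC and CTTTC and CTCTT and CCTTT, which may overlap.
Rpl35 (chr2:39005112-39005141, minus strand): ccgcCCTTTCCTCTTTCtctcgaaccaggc
Rpl7a (chr2:26910797-26910826, plus strand): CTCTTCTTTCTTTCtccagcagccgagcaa
Rps27 (chr3:90213629-90213658, minus strand): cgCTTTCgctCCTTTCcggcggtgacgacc
Rps6 (chr4:86857348-86857377, minus strand): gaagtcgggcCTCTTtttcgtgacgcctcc
Rpl13a (chr7:45128726-45128755, minus strand): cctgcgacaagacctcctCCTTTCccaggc
Rplp2 (chr7:141447641-141447670, plus strand): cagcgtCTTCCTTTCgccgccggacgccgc
Rpl7l1 (chr17:46782637-46782666, minus strand): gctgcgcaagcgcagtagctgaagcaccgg
At least 1 of the 4 strings was present in the window of 31 of the 67 members (46.3%) and in that of 16.7% of 15185 other coding genes. Counted over start sites, the strings were in 40.5% of 79 member entries and in 14.2% of all 32851 entries. Of the windows shown only that of Rpl7l1 had none, a smaller share than over the 67 members. The windows of Rpl5, Rpl9, Rpl23, Rpl41 and Rps3, which are also named below, had none either. The same holds for Rpl27, Rpl10, Rps28, Rps2, Rpl4, Rplp0, Rpl10a, Rpl22 and Rps27l, and this list is not complete. A string was counted anywhere in the window, before or after the start, so a match need not be a 5′ TOP. The match is a description of annotated starts, which need not be the starts used in liver.

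Levels were compared between genes per length, as TPM, the length-scaled abundance given by Salmon, which sums to the same total in every liver. The highest mean was that of Rpl41, the smallest protein of the 60S subunit, at 808 TPM, with a median of 791 TPM and a range of 400 to 1729 TPM over 55 livers. Rpl13a (60S) followed at 655 TPM, Rplp1 (an acidic protein of the stalk, which recruits elongation factors) at 567 TPM and Rps2 (40S) at 515 TPM. The order of these 4 means is not firm, since the SD of each between livers was between 121 TPM (Rps2) and 291 TPM (Rpl41). Most members lay close together, with 71 of 90 between 100 and 600 TPM on average. The transcript with the most TPM in a liver was never a member. It came most often from Mup22 (19 livers), and it took between 3.54% (Mup10) and 52.2% (Mup9) of the TPM of a liver, so the TPM left to the members differed between livers, and medians and ranges are given for that reason.

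Of the 90 members, 11 had a mean under 50 TPM, and these were mainly paralogues and retrocopies. Rpl10l, a retrocopy known from the testis, and Rps27rt had no read in any of 55 livers, and Rps27rt is 100% identical to Rps27 over 345 bases. Rpl27rt had reads in 1 liver, Rpl39l (known from the testis) in 4 and Rpl3l (known from skeletal and heart muscle) in 6, with at most 1.06 reads in a liver. Rps23rg1 was at a mean of 1.25 TPM and Rps4l at 1.43 TPM, with reads of Rps4l in 18 of 55 livers. Rps19bp1 was at 7.56 TPM. Rpl7l1, which resembles Rpl7 and is known from ribosome assembly, was at 25.5 TPM, and Rpl22l1 at 37.0 TPM. Rpl12, a 60S protein at the base of the stalk, was also low, with a median of 3.41 TPM and a range of 0.47 to 267 TPM. Only 22.6% of its reads were on transcripts annotated as protein-coding, and 13 members had less than 50%, among them Rpl23 (10.7%), Rpl35 (25.3%) and Rpl13a (37.0%). The part of transcript annotation in these levels was not tested.

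**Figure D2:**
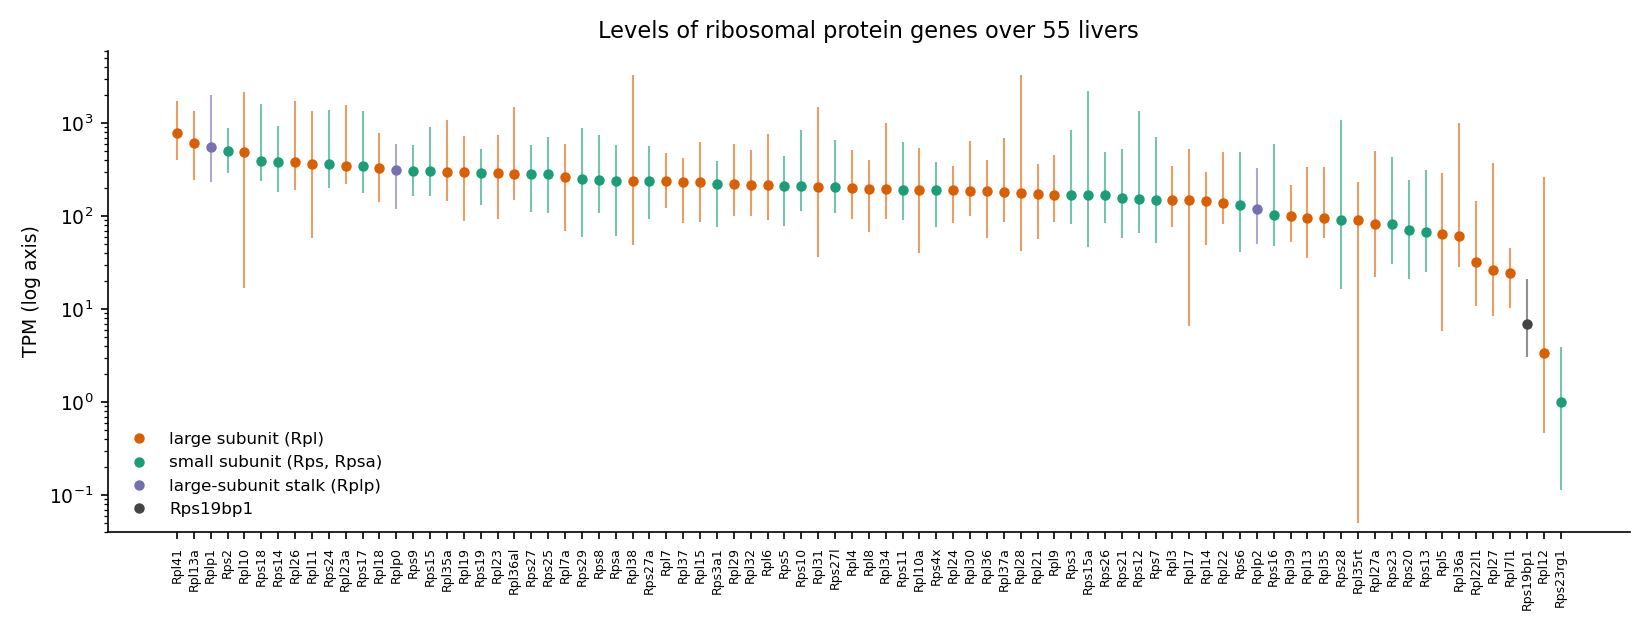
Level of 83 of the 84 members with a median above 0, in TPM on a log axis, with the point at the median and the line from the lowest to the highest of 55 livers. Most points lie between 100 and 600 TPM, Rpl41 is highest at a median of 791 TPM, and Rpl12 (3.41 TPM) has a long line. The line of Rpl35rt, whose lowest value was 0 TPM, is drawn from 0.05 TPM.

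For a gene and its own paralogue or retrocopy the values were as follows, in CPM and so not per length. Rps27l had a median of 70.9 CPM (range 56.2 to 106) and Rps27, its counterpart in the 40S subunit, 58.5 CPM (37.0 to 122). Rps27l thus held 54.6% of the reads of the pair (44.2% to 65.4%). Rpl36al had a median of 116 CPM against 25.7 CPM for Rpl36a, but Rpl36a itself held 45.6% of the reads of its family. Rpl22l1 was at 10.9 CPM against 64.0 CPM for Rpl22, Rpl7l1 at 34.6 CPM against 203 CPM for Rpl7, and Rps23rg1 at 1.41 CPM against 49.0 CPM for Rps23. Rpl35rt was the retrocopy with the most uneven reads. It had none in 7 livers, at most 53.1% of the reads of the pair with Rpl35, and a median of 26.8 CPM. The SD of log2(CPM + 1) within groups was 1.69 for Rpl35rt and 0.28 for the sum of Rpl35 and Rpl35rt, so the pair was steady where the retrocopy alone was not.

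Within groups, the members varied about as much between livers as other genes. The SD of log2 CPM had a median of 0.33 over the members, 0.26 over their families and 0.31 over other genes tested. It was smallest for Rpl4 (0.16) and Rps3 (0.17), followed by Rplp0, Rpl3 and Rpl7l1 (0.20 each), and largest for Rpl35rt (2.23), Rps4l (1.37), Rpl12 (1.34), Rpl10 (1.29) and Rpl27 (1.27). Of the 5 largest, Rpl10 and Rpl27 came down to the level of other members when family reads were added (Rpl27 to 0.28), while Rpl12 did not (1.66).

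The members went up and down together from liver to liver. Pearson's r of a member with the mean of the others, after removal of group means, had a median of 0.79 over 55 livers, and 66 of 85 members were above 0.5. With family sums the median was 0.91 and 78 of 86 were above 0.5. For other genes the median r with the members' mean was -0.03 and the 95th percentile 0.67. The lowest member was Rpl5, a 60S protein that binds 5S rRNA, at -0.29. All these values share the livers, their depth and the scaling, and are a description.

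Genes outside the list whose pattern was most like that of the members were, by r over 55 livers at a mean of at least 10 CPM, Tmem205 and Atp5mf (0.91 each), then Prdx5, Fxyd1, Uqcrh, Urah, Eef1d, Ndufb9, Vkorc1 and Swi5 (0.89 each). Only Eef1d, a subunit of elongation factor 1, belongs to translation. All 10 are short, with lengths of 502 to 929 bases, as are the members, whose median length was 667 bases against 2625 bases for other genes, and 75 of the 85 members tested were under 1000 bases. The livers at either end show the same relation. In LL mouse 46 the members' median stood 0.55 log2 units above the mean of the group, the other genes under 1000 bases 0.37 above it and genes of 3000 bases or more 0.16 below it, at -0.16. LL mouse 45 (0.45, 0.41 and -0.18) and PL+GKA mouse 32 (0.55, 0.36 and -0.17) had the same order. In LL mice 41 and 42 and PP+GKA mouse 11 it was turned around, with members at -0.38, -0.33 and -0.31, short genes at -0.25, -0.25 and -0.18 and long genes at 0.13, 0.12 and 0.12. Mitochondrial transcripts took 8.09% to 8.47% of reads in the first 3 livers and 10.2% to 11.5% in the other 3. Gene length moved with the members' level in this way, and its part in the results below was not tested beyond the fits named there. In bulk liver, fewer cells of a type and less RNA per cell cannot be told apart.

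The share of a liver's reads assigned to the members was small and overlapped between all groups. It was between 0.845% and 0.971% in PP (median 0.889%), between 0.823% and 1.04% in PL (median 0.935%) and between 0.775% and 1.17% in LL (median 0.963%). With GKA it was between 0.785% and 1.12% in PP (median 0.962%), between 0.819% and 1.22% in PL (median 0.958%) and between 0.798% and 1.03% in LL (median 0.956%). PP without GKA had the lowest median and the narrowest range, and every PP liver lay within the range of LL livers. With pseudogene reads added the medians were between 1.02% (PP) and 1.10% (LL).

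**Figure D3:**
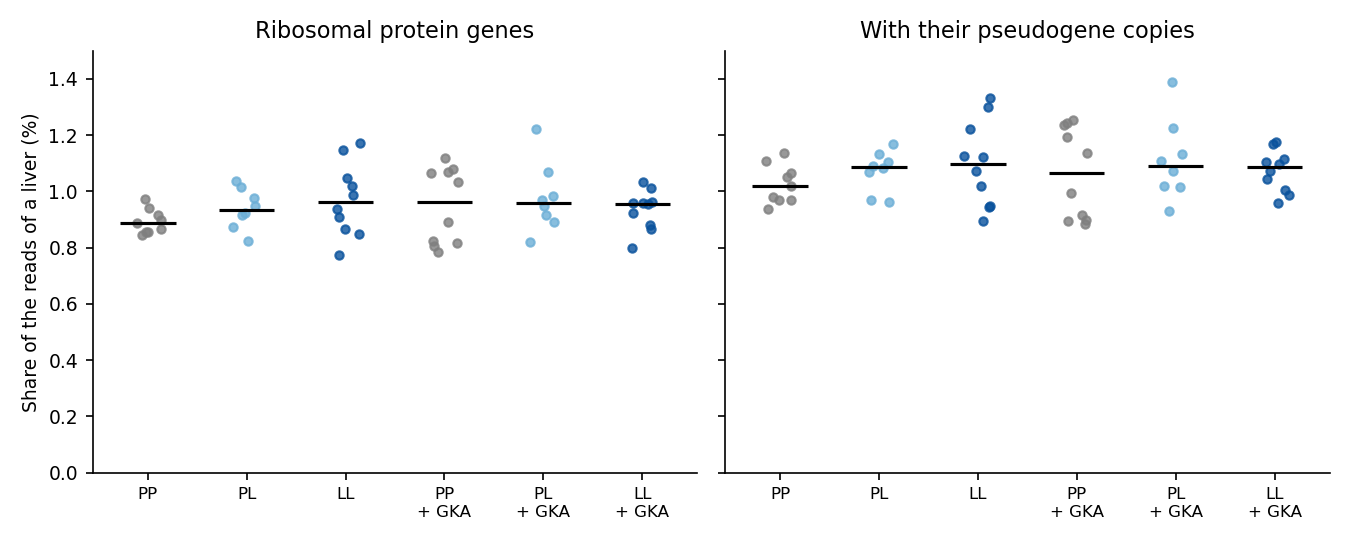
Share of the reads of each liver (%) on the members (first panel) and on the members with their matching pseudogenes (second panel), by group. Each point is a liver and each bar a median: the groups overlap, with medians from 0.889% (PP) to 0.963% (LL) in the first panel.

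The first comparison asks which members differed by LL genotype on the HFHSD alone. No member was a differentially expressed gene (DEG), which here needs an adjusted p below 0.05 in edgeR's quasi-likelihood test with a fold of 1.3 and over, or of 0.7 and under, and 0.0854% of the 10537 genes tested were DEGs (9 genes). At an unadjusted p below 0.05, 6 of 83 members tested were higher and 1 was lower in LL, where 6.15% of all genes tested were higher and 5.69% lower. The 6 became 1 with family sums, 13 without LL mouse 41, 11 without LL mouse 42, and 3 without PP mouse 8 or LL mouse 46. DESeq2 also called no member. In sign, 76 of 83 members had a log2 fold change above 0 against 52.7% of all genes tested, with a median of 0.16 against 0.01 for all genes tested, and with effective gene lengths of each liver as an offset the median turned to -0.06 with 33 above 0. By role, 40 of 43 60S genes (median 0.19), 30 of 31 40S genes (median 0.16) and all 3 stalk genes (median 0.17) were above 0, paralogues counted apart. Between single livers of a group the members' median had an SD of 0.24. This is a spread of livers and not the error of a difference between 2 groups.

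Among single members, Rpl12 had the largest difference by LL genotype. It lay between 1.27 and 7.18 CPM in PP (median 3.90) and between 0.95 and 62.1 CPM in LL (median 6.82). The groups overlapped, and 3 LL livers at 31.5, 57.8 and 62.1 CPM stood far above the other LL livers, which reached at most 8.67 CPM. PP mouse 7, which was not used, was at 15.4 CPM. The log2 fold change was 2.15 (SE 0.69, edgeR adjusted p = 0.184), and that of its family was 0.74 (adjusted p = 0.696). Rpl35, part of the ring around the exit of the peptide tunnel, lay between 29.7 and 49.5 CPM in PP (median 39.6) and between 29.6 and 77.0 CPM in LL (median 50.1), with log2 0.36 (SE 0.14, edgeR adjusted p = 0.298). Its retrocopy Rpl35rt was at -0.23. Rpl23 (60S) lay between 111 and 168 CPM in PP (median 151) and between 133 and 283 CPM in LL (median 160), with log2 0.36 for the gene and 0.17 for the family. These ranges also overlapped.

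Of the members below 0, Rpl7l1 had the smallest p. It lay between 29.8 and 46.3 CPM in PP (median 39.8) and between 26.1 and 40.0 CPM in LL (median 32.5), a log2 fold change of -0.24 (SE 0.09, edgeR adjusted p = 0.298). Rps28, a small protein of the 40S subunit, lay between 18.7 and 63.6 CPM in PP (median 35.6) and between 15.0 and 42.6 CPM in LL (median 23.1), at log2 -0.47 (edgeR adjusted p = 0.472). Rps28 is the gene whose copy Gm10443 is shown above. Its family was at medians of 53.5 CPM in PP and 55.2 CPM in LL, with log2 0.19, so that the gene and the sum of gene and copies had opposite signs.

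The members' shift was seen together with a trend over gene length. By LL genotype without GKA, genes that are no members were at a median of 0.08 on the log2 scale below 750 bases, 0.10 from there to 1000 bases, 0.06 from 1000 to 1500 bases, 0.03 from 1500 to 2000 bases and -0.02 at 3000 bases or more. The members' medians were 0.16 (53 genes), 0.21 (21 genes) and 0.07 (6 genes) in the first 3 classes. When the length trend of each liver was removed before the fit, the members' median was 0.05 (56 above 0 and 27 below), and with family sums in addition it was 0.01 (48 above and 35 below). The last fit was chosen after the data were seen.

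**Figure D4:**
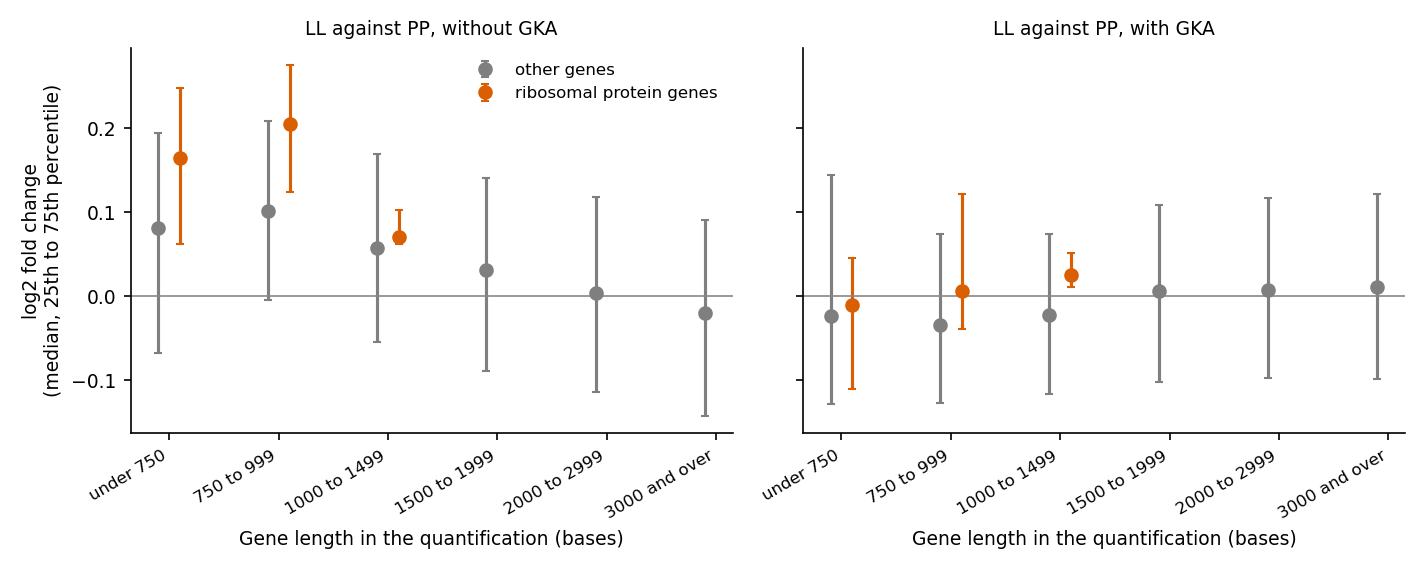
Log2 fold change by LL genotype (median, with lines from the 25th to the 75th percentile) for members and for other genes, in classes of gene length in bases, without GKA (first panel) and with GKA (second panel). Classes with under 5 genes are not drawn. Without GKA the medians of other genes go from 0.10 between 750 and 1000 bases to -0.02 at 3000 bases or more, and the members lie above other genes of their class, while with GKA both lie near 0. With effective lengths as an offset the members' median without GKA is -0.06.

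In the fit to counts alone the heterozygous mice gave similar counts. The PP controls were the same, so the comparisons are not independent. The members' median of PL against PP with effective lengths as an offset is not given here. By PL genotype without GKA no member was a DEG, with 0.151% of 10592 genes called, and 71 of 84 members were above 0 with a median of 0.10, where 48.8% of all genes tested were above 0. At an unadjusted p below 0.05, 4 members were higher and 1 was lower, beside 5.07% and 5.02% of genes, and DESeq2 called none. Rpl12 had log2 1.56 (edgeR adjusted p = 0.382, family 0.97), with PL livers between 1.91 and 62.2 CPM. Rpl7l1 had log2 -0.24 (SE 0.09, edgeR adjusted p = 0.387), with PL livers between 28.6 and 41.0 CPM (median 31.9). In LL against PL, 58 of 85 members were above 0 (median 0.05, -0.36 with effective lengths as an offset and -0.01 with the length trend removed), beside 50.2% of all genes. None was called in edgeR or DESeq2, where 0.00942% of genes were, and 2 had an edgeR unadjusted p below 0.05, both lower, beside 2.02% of genes higher and 2.56% lower. These 2 were Rps4l and Rps23rg1. In the pair-wise fits they passed the low-count filter only where PL livers, in which both were higher, were included. Their lower sign in LL is thus not independent of the filter. The smallest p values were those of Rps4l at -1.98, and of Rpl21 (60S) at 0.23 (family 0.14) among those above 0.

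With GKA the members were evenly divided by LL genotype in the fit to counts alone. In LL against PP with GKA, 42 of 83 members were above 0 and 41 below, with a median of 0.00, beside 50.6% of all genes above 0. This split also moved with the scaling: the median was 0.09 with effective lengths as an offset (57 above 0 and 26 below), 0.04 with the length trend removed (55 and 28, close to the 56 and 27 without GKA) and 0.06 with family sums in addition (69 and 14). No member was called, by edgeR or by DESeq2, where 0.239% of genes were called, and 1 was lower at an unadjusted p below 0.05 in edgeR, beside 5.27% of genes higher and 5.11% lower. This was Rplp1 of the stalk, at 163 to 300 CPM in PP+GKA (median 205) and 161 to 205 CPM in LL+GKA (median 181), with log2 -0.22 (SE 0.10, edgeR adjusted p = 0.452). The ranges overlapped, and the highest LL+GKA liver was near the median of PP+GKA. The next by p were Rpl7l1 at -0.17 and Rpl9 (60S) at -0.20 (family -0.04) among those below 0, and Rpl5 at 0.37 (family 0.57), Rpl12 at 0.95 (family 0.10, and 0.14 for the gene without LL+GKA mouse 54) and Rps27 at 0.17 among those above 0.

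The test of whether the difference by LL genotype itself differed with GKA found none among the members. In the interaction 0 of 85 members had an edgeR adjusted p below 0.05, as had 0.0% of 11477 genes, and DESeq2 gave none among the members. At an unadjusted p below 0.05, 1 member was higher and 5 were lower, beside 2.93% and 3.15% of genes. The log2 interaction was below 0 for 72 of 85 members, with a median of -0.16 that was 0.13 with effective lengths as an offset and 0.05 with family sums and the length trend removed, and 47.5% of all genes were above 0. The smallest p values were those of Rpl9 at -0.51 (family -0.18) and Rps28 at 0.74 (family -0.09). For PL the interaction was above 0 for 44 members and below 0 for 41, with 27 above 0 under the offset. It had 0.0% of genes called, 1 member lower at an unadjusted p below 0.05 (1.73% of genes higher and 1.46% lower) and none by DESeq2, with Rpl12 at -2.31 (family -2.24) and Rpl7l1 at 0.23.

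GKA within a genotype called no gene at all in edgeR (0.0% of genes in PP, PL and LL), and none of the members in DESeq2. In PP 68 of 83 members were above 0 with GKA (median 0.10), in PL 72 of 85 (median 0.11) and in LL 29 of 83 (median -0.06), and with effective lengths as an offset all 3 medians changed sign, to -0.05, -0.30 and 0.02. Of all genes 51.6%, 52.3% and 50.5% were above 0. Members with an unadjusted p below 0.05 numbered 3 in PP, all higher, where 1.5% of genes were higher and 2.06% lower. In PL 4 were higher and 1 lower (1.47% and 1.71% of genes), and in LL there were 0 (2.95% and 3.2% of genes). In PP the smallest p values were those of Rpl9 at 0.30 (family 0.13) and Rps28 at -0.46 (family -0.041), in PL those of Rps15a (40S) at 0.34 (family 0.23) and Rpl12 at -1.95 (family -1.77), and in LL those of Rpl35 at -0.25 and Rps28 at 0.29 (family -0.13). These comparisons share their mice with those by genotype.

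Between PL and the other genotypes on GKA the counts leaned toward PL. In PL against PP with GKA 66 of 84 members were above 0 (median 0.11, and 49.9% of all genes), and in LL against PL with GKA 15 of 83 were (median -0.11, and 49.4% of all genes), both with the same PL livers and with 0.0% of genes called. The second median was -0.02 with effective lengths as an offset and -0.01 with the length trend removed (37 above 0 and 46 below). At an unadjusted p below 0.05, 2 members were higher in the first (3.89% of genes higher and 4.31% lower). In the second 1 was higher and 7 were lower (3.79% and 4.8% of genes), and DESeq2 called none in either. The 1 higher member was Rpl12, at log2 1.68 (family 1.38). In PL against PP with GKA, Rpl12 had the smallest p below 0, at -0.74 (family -1.29), so it ran against the lean toward PL. Rps27a, which is made as a fusion of ubiquitin with a 40S protein, lay between 86.6 and 163 CPM in PP+GKA, between 123 and 236 CPM in PL+GKA and between 57.8 and 161 CPM in LL+GKA. The PL+GKA livers stood at the upper end, at log2 0.34 over PP+GKA (edgeR adjusted p = 0.511), and LL+GKA was at -0.50 against them (edgeR adjusted p = 0.416). The family of Rps27a differed less, at 0.13 and -0.12.

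**Figure D5:**
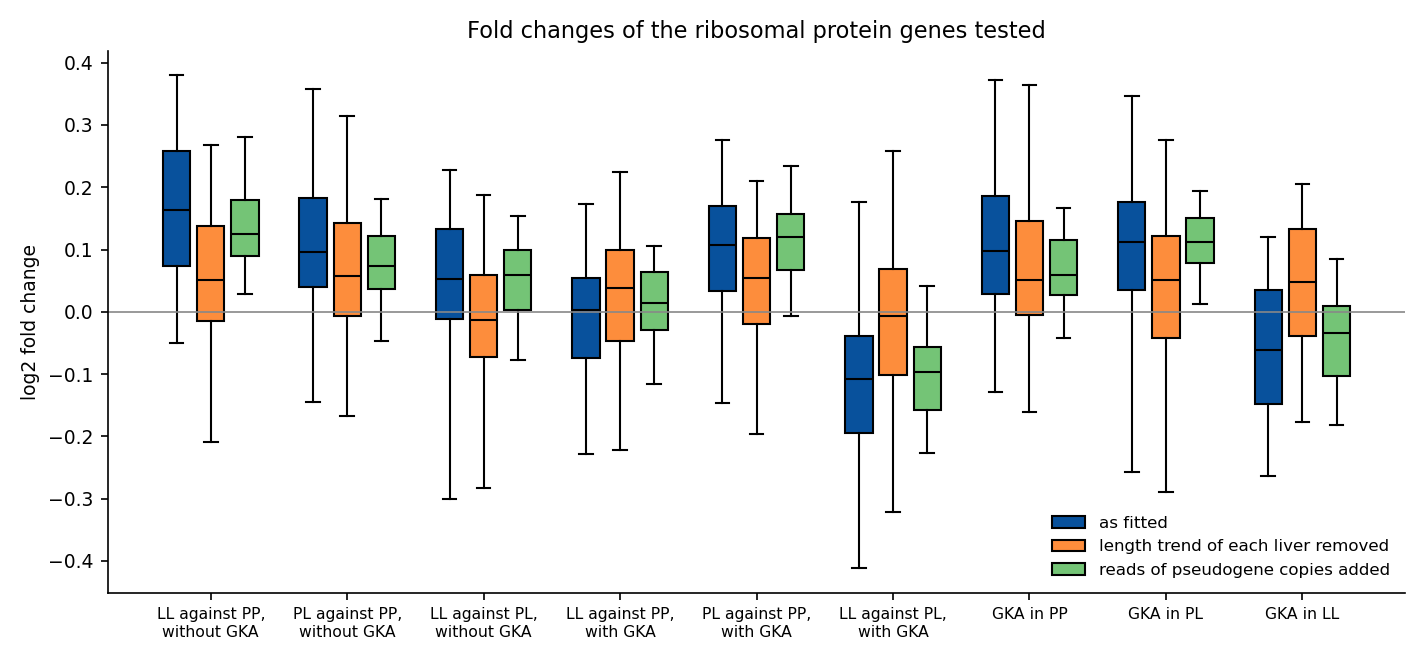
Log2 fold changes of the members tested in each of the 9 pair-wise comparisons, as fitted, with the length trend of each liver removed, and with pseudogene reads added. Boxes run from the 25th to the 75th percentile with the median as a line, and whiskers from the 5th to the 95th. For LL against PP without GKA the medians are 0.16, 0.05 and 0.13, and with effective lengths as an offset, which is not drawn, -0.06.

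With all 55 livers in a fit with genotype and GKA as terms, again no member was a DEG. The share of genes called was 1.7% in LL against PP, 1.05% in PL against PP, 0.34% in LL against PL and 0.0% for GKA. In the fit to counts alone, members above 0 were 72 of 85 (median 0.07), 74 (median 0.10), 28 (median -0.02) and 66 (median 0.03). Of all genes 50.9%, 50.0%, 51.3% and 50.7% were above 0. With effective lengths as an offset the GKA median was -0.10, and the medians by genotype are not given here. At an unadjusted p below 0.05, 2 members were higher and 1 lower in LL against PP (7.87% and 8.1% of genes), and 1 was higher in PL against PP (6.82% higher and 7.28% lower of genes). In LL against PL 3 were lower (4.68% of genes higher and 4.14% lower), and for GKA 2 were higher (2.61% higher and 2.68% lower). DESeq2 called 1 member, Rpl12 in LL against PP, and none in the other 3.

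Rpl7l1 and Rpl12 came nearest to the threshold in this fit. Rpl7l1 in LL against PP had a log2 fold change of -0.21 (SE 0.06, edgeR adjusted p = 0.0552) and did not reach the fold threshold. With GKA its livers were at 28.4 to 41.3 CPM in PP (median 37.1), 29.6 to 46.1 CPM in PL (median 35.9) and 27.2 to 39.4 CPM in LL (median 30.4), so that LL had a lower median than PP with and without GKA while the ranges overlapped. No pseudogene took reads from Rpl7l1 to a degree that moved it (family -0.21). Rpl12 in LL against PP was at log2 1.46 (SE 0.48, edgeR adjusted p = 0.0774) with a family value of 0.33. In DESeq2 it was at 1.43 (adjusted p = 0.0427). The highest Rpl12 liver was at 62.2 CPM in PL, 62.1 CPM in LL, 48.7 CPM in LL+GKA, 18.2 CPM in PP+GKA, 7.18 CPM in PP and 5.30 CPM in PL+GKA, and the group medians were between 3.02 and 6.82 CPM. Without PP+GKA mouse 19 the edgeR value was 1.79 (adjusted p = 0.0230).

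Rps4l and Rps23rg1, both retrocopies of 40S genes with few reads, had the smallest p in LL against PL. Rps4l had reads in 1 of 9 PP, 7 of 8 PL and 2 of 10 LL livers without GKA, and in 2 of 10 PP, 5 of 8 PL and 1 of 10 LL livers with GKA, with at most 28.6 reads in a liver. Its reads were thus found mainly in PL livers. In the pair-wise fits Rps4l and Rps23rg1 passed the low-count filter only in comparisons with PL livers. A higher value in PL is therefore partly a condition of their being tested there. The log2 fold change of Rps4l was 1.89 in PL against PP (SE 0.71, edgeR adjusted p = 0.168) and -2.26 in LL against PL (SE 0.73, edgeR adjusted p = 0.181). Rps23rg1 was between 0.725 and 3.25 CPM in PL (median 2.25) and between 0.158 and 3.27 CPM in LL (median 1.07), and with GKA at medians of 1.76 in PL and 0.818 CPM in LL. The LL medians were the lower ones, with overlap, at log2 -0.93 (SE 0.27, edgeR adjusted p = 0.111). Other members named by the smallest p values were Rpl23a (0.16), Rps27 (0.23), Rps23rg1 (-0.50) and Rpl27 (-0.39, family 0.04) in LL against PP. In PL against PP they were Rpl27a (0.44, family 0.17), Rpl23a (0.16), Rpl7l1 (-0.12), Rps28 (-0.20, family 0.15) and Rps6 (-0.20, family 0.11), the 40S protein phosphorylated downstream of mTORC1.

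In LL against PL of the same fit, Rpl12 (0.98, family 0.40), Rps6 (0.42, family 0.04) and Rpl7a (0.12) had the smallest p above 0, and Rpl27a (-0.49, family -0.13) followed the retrocopies below 0. For GKA the 6 members were Rpl3 (0.12, edgeR adjusted p = 0.929), Rps3 (0.10), Rps23 (0.43, family 0.06), Rpl12 (-0.78, family -0.39), Rpl10a (-0.28, family 0.04) and Rps6 (-0.22, family -0.00053). Rpl3 and Rps3, proteins of the 60S and the 40S subunit, were among the steadiest members between livers (SD 0.20 and 0.17). Rpl3 lay between 138 and 204 CPM in PP (median 162) and between 143 and 225 CPM in PP+GKA (median 171), overlapping ranges.

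Other genes of translation were counted on fixed lists. Fau (fused to a ubiquitin-like protein) and Rack1 (on the 40S head) were not called in any comparison, and by LL genotype without GKA both were at 0.11. In the fit of all livers Fau was at -0.23 (SE 0.25) and Rack1 at 0.04 by LL genotype. Of 12 elongation factors and other 5′ TOP messages 0 were called in any comparison, while 10 were above 0 by LL genotype without GKA (median 0.10) and 11 in the fit of all livers (median 0.08). Tpt1, a 5′ TOP message, lay between 333 and 490 CPM in PP (median 384) and between 360 and 740 CPM in LL (median 551), at log2 0.44 (SE 0.12, edgeR adjusted p = 0.130). Of 26 initiation factors and 26 ribosome biogenesis genes 0 were called in any comparison. Their medians by LL genotype without GKA were -0.01 and 0.03. The 78 mitochondrial ribosomal protein genes, which belong to another ribosome, had 59 above 0 by LL genotype without GKA (median 0.07) and 0 called, where 52.7% of all genes tested were above 0. Beside them the cytosolic members had 76 of 83 (median 0.16).

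Upstream of the ribosome, 1 of 18 genes of mTORC1 and its brakes was called, in LL against PP over all livers, where 1.7% of all genes were. Ddit4, an inhibitor of mTORC1 known to be induced by stress and glucocorticoids, fell with log2 -0.65 (SE 0.19, edgeR adjusted p = 0.0317), with medians of 3.67 CPM in PP and 2.18 CPM in LL, and of 2.95 CPM in PP+GKA and 2.49 CPM in LL+GKA. Of 9 ribosome quality and surveillance genes Cdkn1a, a p53 target that halts the cell cycle, was called. In the same fit of all livers it fell by LL genotype (log2 -1.12, SE 0.27, edgeR adjusted p = 0.00781) and by PL genotype (log2 -1.76, SE 0.30, edgeR adjusted p = 0.000502). Its livers were at 6.37 to 19.6 CPM in PP (median 14.3), 0.794 to 12.6 CPM in PL (median 4.11) and 1.12 to 11.3 CPM in LL (median 3.98). With GKA they were at 2.82 to 23.2 CPM in PP (median 9.64), 1.35 to 4.43 CPM in PL (median 2.63) and 1.58 to 11.1 CPM in LL (median 5.19). The PP median lay above the highest PL and LL livers without GKA, while with GKA the highest LL liver was above the PP median, and the ranges overlapped in all 4 pairs.

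Markers of the time of day differed in part with genotype. The 5 red blood cell markers were above 0 by LL genotype without GKA (median 0.56, 0 called), beside 52.7% of all genes tested. Their sum was 288 to 718 CPM in PP and 395 to 1658 CPM in LL, and 373 to 669 CPM and 285 to 2962 CPM with GKA, overlapping ranges. None of the markers of hepatocytes, macrophages, lymphocytes, neutrophils, stellate, endothelial, bile duct, muscle, pancreas or fat cells was called in edgeR in any comparison. Clock genes differed more: 5 of 16 were called in LL against PP over all livers (1.7% of all genes), with Npas2 (-2.28), Bmal1 (-1.25), Cry1 (-0.91) and Nfil3 (-0.74) lower and Dbp (1.16) higher. In PL against PP 9 were called (1.05% of all genes). The hour at which livers were taken is not given in the sources used here, and the part of clock genes and red blood cells in the members' values was not tested.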

How the data were processed

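Liver RNA with an integrity number above 6 was sequenced. The authors ran FastQC, trimmed no reads and quantified with Salmon 1.4.0 on GENCODE M26 transcripts (GRCm39). The deposited tables hold, for each liver and transcript, an estimated count that is not normalised and a TPM value scaled by effective length. Replicates were not pooled, and the total was 5189852 to 8093368 reads per liver.

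The members and all lists were chosen with earlier results of these data known. Transcripts were assigned to genes by GENCODE vM39 (137570 of 139225 matched), and expected counts were summed per gene and rounded. Genes were tested with edgeR 4.0.16 (TMM, filterByExpr, quasi-likelihood) in R 4.3.3, for the 2 groups compared or for all 6 groups with genotype and GKA as terms, and p was adjusted (Benjamini-Hochberg) over all genes tested. Interactions had no fold threshold. Log2 CPM had a prior count of 2. Pseudogene copies were found with BLAST 2.17.0. On simulated counts for LL against PP, 90.7% of 2-fold, 56.7% of 1.5-fold and 2.54% of 1.3-fold changes were called.

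Members named with a fold change were the 3 with the smallest p in each direction (LL against PP and the fits of all groups) or the smallest in each direction (other comparisons). Named levels were the 5 highest and 5 lowest by mean TPM (1 of the highest is not reported here), the 5 largest and 5 smallest SDs, and the paralogue pairs. The labels do not say that mice came from separate litters or cages, so p-values cover the spread between these livers. Replicates of a group differed by at least 14.5 in chi-square per gene, far above counting noise. Alternatives were DESeq2 1.42.0, its size factors, no low-count filter, effective lengths as an offset, removal of the length trend, coding transcripts only, added pseudogene reads, PP mouse 7 kept, 1 fit of all groups, and each mouse left out in turn.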

Additional observations from a re-analysis of the deposited data

Results flagged for a closer look

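Of 52 groups of livers examined over the members named, 10 had a liver at one end that stood further from the nearest of the others than Dixon's 95% criterion allows for its group size. Chance gives about 1 in 20 groups only for values picked without regard to their spread. Some of these members, Rpl12 and Rps4l among them, were named for a large SD or a small p, so that rate is no fair reference here. Rpl12 had such a liver in 3 groups. PL mouse 28 was at 62.2 CPM with the next liver at 11.5 CPM, PP+GKA mouse 19 was at 18.2 CPM with the next at 7.94 CPM, and LL+GKA mouse 54 was at 48.7 CPM with the next at 16.2 CPM.

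The members' share of the reads of their families stood apart in PL+GKA mouse 34 at 90.1%, with the next liver at 88.2%, and in LL+GKA mouse 50 at 83.1%, with the next at 86.0%. Rps4l was at 4.27 CPM in LL mouse 45 and at most 1.90 CPM in the other LL livers. Rps28 was at 66.8 CPM in PP+GKA mouse 16 with the next liver at 36.8 CPM. Rps15a was at 31.4 CPM in PL mouse 23 with the next at 46.3 CPM. Rpl35 was at 62.4 CPM in LL+GKA mouse 52 with the next at 47.1 CPM, and Rps27a was at 236 CPM in PL+GKA mouse 32 with the next at 173 CPM. PL+GKA mouse 32 is also a liver in which the members as a whole were high.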

How the results depend on the processing

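No paired analysis was possible because each mouse carries a number of its own, and no number is shared between groups. Of the summary values 815 kept their direction and side of the threshold or moved by less than the spread between livers, and 22 did not. Of the values of single members 2651 did so, 259 moved, 25 changed sign and 7 came to pass the threshold. The cause of these changes was not tested.

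The count of members called was 0 in edgeR. It was 1 in LL against PP over all livers with DESeq2 (Rpl12) and 1 in LL against PL over all livers with effective lengths as an offset (Rps23rg1, adjusted p = 0.0255). With each mouse left out in turn the count was between 0 and 1 in LL against PP (1 without LL mouse 42, PL mouse 28 or PP+GKA mouse 19, each time Rpl12, with adjusted p of 0.0488, 0.0309 and 0.0230 in edgeR), between 0 and 1 in LL against PL (without LL mouse 45, Rps4l, log2 -3.06) and between 0 and 1 in PL against PP (without PP+GKA mouse 13, Rps4l, log2 2.56), all over all livers. In the pair-wise fits Rps23rg1 and Rps4l passed the low-count filter only with PL livers, in which both were higher. Their calls here, all in contrasts with PL, are thus not independent of the filter. Rpl7l1 in LL against PP over all livers passed the adjusted threshold but not the fold threshold with DESeq2 (adjusted p = 0.0410) and with the length trend removed (adjusted p = 0.0237). With family sums and the length trend removed, chosen after the data were seen, Rpl7l1 (log2 -0.21, adjusted p = 0.0233) did so again, as did Rpl17 (0.16, adjusted p = 0.00480), Rpl7a (0.10, adjusted p = 0.0347) and Rps6 (0.13, adjusted p = 0.0453) in edgeR in that comparison. With each mouse left out in turn, members higher at an unadjusted p below 0.05 numbered 3 to 13 in LL against PP without GKA, and over all livers 1 to 5 in LL against PP, 1 to 10 in PL against PP (10 without PP+GKA mouse 20) and 0 to 7 for GKA (7 without LL mouse 46), and those lower numbered 0 to 5 in LL against PP with GKA (5 without LL+GKA mouse 52).

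With effective lengths as an offset the members' median log2 fold change was -0.36 in LL against PL without GKA and -0.30 for GKA in PL, and in the interactions 0.13 for LL and -0.29 for PL. With each mouse left out in turn the median in LL against PP was between 0.10 and 0.22 without GKA and between -0.03 and 0.05 with GKA. The members' median share of TPM was 1.99% in PP, 1.93% in PL, 1.85% in LL, 2.23% in PP+GKA, 1.89% in PL+GKA and 2.00% in LL+GKA. Their median share of reads with family sums, an alternative chosen after the data were seen, was 1.02% in PP, 1.09% in PL, 1.10% in LL, 1.06% in PP+GKA, 1.09% in PL+GKA and 1.09% in LL+GKA.

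Single members changed sign as follows. With effective lengths as an offset Rpl35 was at -0.034 in LL against PP without GKA, Rpl7l1 at 0.12 in LL against PP with GKA and at -0.047 in the PL interaction, and Rps3 at -0.10 for GKA over all livers. With protein-coding transcripts only Rpl27a was at 0.15 in LL against PL, and Rpl12 at 0.28 and Rps23 at -0.42 for GKA, all over all livers. With reads of pseudogenes named for a member added Rps6 was at 0.12 in PL against PP, and Rpl10a at 0.048 and Rps6 at 0.0028 for GKA, all over all livers. With family sums Rps28 was at 0.19 in LL against PP without GKA, -0.13 for GKA in LL, 0.15 in PL against PP over all livers and -0.085 in the LL interaction, Rpl27 at 0.037 in LL against PP, Rps6 at 0.11 in PL against PP and Rpl10a at 0.045 for GKA, all over all livers. With family sums and the length trend removed, also chosen after the data were seen, Rps28 was at 0.038, -0.010 and 0.075 in the first 3 of these, Rpl9 at 0.013 in LL against PP with GKA, Rpl27 at 0.0013 in LL against PP, Rps6 at 0.077 in PL against PP and 0.013 for GKA, and Rpl10a at 0.055 for GKA.

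Depth limited the low members: Rpl12 had a median of 23.7 reads and Rps23rg1 of 10.1 reads per liver, and Rps4l a median of 0. On simulated counts for LL against PP without GKA, 2.54% of 1.3-fold and 56.7% of 1.5-fold changes were called. Intervals of estimated counts do not include the uncertainty of dividing shared reads.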
